A study of Mus musculus with 4 samples.

Results

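The 34 genes described here are a set of named G1/S and DNA replication genes, found by exact symbol among the 27998 genes listed in the counts, and all 34 were found. They are defined by name, with no threshold on a measured value, but were chosen with earlier results of these data known. By role they fall into 10 genes of origin licensing and of the replicative helicase, 9 genes of the fork and of DNA synthesis, 5 genes of nucleotide supply, 7 genes of repair, chromatin and histone mRNA, and 3 genes of G1/S control. All 34 passed the filter on low counts when counts were summed over all cells of a library, so that none was left out of that comparison, for which 11566 genes were tested.

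The cells were H-2Db-GP33 tetramer-positive CD8+ T cells, specific for the GP33 epitope of lymphocytic choriomeningitis virus (LCMV), sorted on day 8 after infection with LCMV Armstrong from spleens of 2 mixed chimeras and read by droplet-based single-cell RNA-sequencing. In each chimera, a sub-lethally irradiated Rag1-/- mouse, which makes no mature T or B cells of its own, had received bone marrow of wild-type mice (WT, CD45.1) and of mice with a germline deletion of Bcl3 (Bcl3-/-, CD45.2), both on a C57bl/6 background. Each chimera gave 1 library of each genotype, called WT1 and KO1 (chimera 1) and WT2 and KO2 (chimera 2), which makes n = 2 libraries per genotype. Bcl3 encodes Bcl-3, an atypical nuclear protein of the IκB family, and the comparison addresses what its loss does within CD8+ T cells that share 1 host. All WT cells carried CD45.1 and all Bcl3-/- cells CD45.2, so the deletion and the congenic origin of the donor cannot be told apart.

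Filtering kept 4941 WT1, 8092 WT2, 5366 KO1 and 6494 KO2 cells, with medians of 3571, 2019, 3620.5 and 2948 unique molecular identifiers (UMIs) per cell in the same order. A UMI counts a captured transcript once, at its 3′ end, so that values need no scaling by gene length. Levels are given as CPM, the UMIs of the gene scaled to the same total in every library, for a gene and as UMIs per 10000 for the sum of the 34 genes. Cd8b1, a chain of the CD8 co-receptor, had 1907 and 1717 CPM in WT1 and WT2 and 2033 and 2039 in KO1 and KO2, whereas Cd4 lay between 1.72 and 2.67 CPM. Cd3e, a chain of the T cell receptor complex, differed between genotypes with no overlap, at 477 and 404.5 CPM in the WT libraries and 798 and 913 in the Bcl3-/- libraries. Bcl3 itself was detected in every library, at 33.2 and 108 CPM in WT1 and WT2 and 27.6 and 86.6 in KO1 and KO2. Which part of the gene was deleted is not given in the sources used here, and UMIs from outside that part do not check the genotype.

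Cells that enter the cycle first license replication origins, by loading the Mcm2 to Mcm7 helicase ring with the help of Cdc6, and cyclin E with E2F transcription factors then carries them from G1 into S phase. In S phase, Cdc45 and the GINS complex join the ring to form the active helicase, polymerases copy both strands behind it, and enzymes of nucleotide synthesis supply the building blocks. E2F factors switch on most of these genes together. CD8+ T cells divide many times in the first week after LCMV infection, and cycling slows as the virus is cleared.

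To show what E2F recognition letters look like at these genes, the 250 bases before the start of transcription were read from RefSeq on GRCm38.p6. The table used held 28 of the 34 genes and 27025 genes in all. At least 1 of 4 E2F motifs, TTTGGCGC, TTTCGCGC, TTTCCCGC and TTTGGCGG on either strand, stood in this window in 9 of the 28 genes, or 32.1%, and in 2.26% of all genes. These genes were Mcm5, Mcm6, Mcm7, Cdc6, Clspn, Pola1, Dnmt1, Hells and Uhrf1. The letters TTTGAA on either strand, a core of the element found at many genes of G2 and mitosis, stood in 14.3% of the 28 genes and in 18.3% of all genes. The windows of 4 of the 9 genes overlapped no annotated exon. They are printed 5′ to 3′ on the strand of the gene, with the motif letters in capitals. The Mcm6 window is chr1:128359706-128359955 on the minus strand, the Mcm5 window chr8:75109259-75109508 on the plus strand, the Uhrf1 window chr17:56304063-56304312 on the plus strand and the Pola1 window chrX:93632156-93632405 on the minus strand.
Mcm6: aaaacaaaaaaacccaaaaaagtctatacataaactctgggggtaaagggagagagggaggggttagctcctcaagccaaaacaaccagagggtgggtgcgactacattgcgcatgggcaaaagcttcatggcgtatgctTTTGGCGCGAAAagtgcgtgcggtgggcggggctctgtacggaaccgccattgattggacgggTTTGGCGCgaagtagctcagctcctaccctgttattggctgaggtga
Mcm5: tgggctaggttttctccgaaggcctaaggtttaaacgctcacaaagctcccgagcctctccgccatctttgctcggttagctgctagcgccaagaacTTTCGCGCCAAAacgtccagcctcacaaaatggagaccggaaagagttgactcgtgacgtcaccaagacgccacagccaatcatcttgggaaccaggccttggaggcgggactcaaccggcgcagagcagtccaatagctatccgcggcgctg
Uhrf1: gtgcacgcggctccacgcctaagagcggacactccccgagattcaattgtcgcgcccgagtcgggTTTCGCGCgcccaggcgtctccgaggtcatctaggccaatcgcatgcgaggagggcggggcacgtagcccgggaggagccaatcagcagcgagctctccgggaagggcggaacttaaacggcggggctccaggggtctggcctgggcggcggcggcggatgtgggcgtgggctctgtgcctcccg
Pola1: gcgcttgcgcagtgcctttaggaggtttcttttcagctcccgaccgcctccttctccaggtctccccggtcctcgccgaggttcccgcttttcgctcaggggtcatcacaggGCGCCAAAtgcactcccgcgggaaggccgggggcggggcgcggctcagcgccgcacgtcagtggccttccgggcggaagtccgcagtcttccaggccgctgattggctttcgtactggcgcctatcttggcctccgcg
Mcm6 held 3 matches, the first beginning 110 bases and the last 47 bases before the start, and the first 2 overlap each other, so that they form 1 run of capitals. The 2 matches of Mcm5 also overlap, in the run that begins 153 bases before the start. Uhrf1 held 1 match, 185 bases before the start, and Pola1 1 match, 138 bases before it. These starts are those of RefSeq. GENCODE begins Uhrf1 992 bases further upstream, which puts the printed window inside an intron of that annotation, whereas its starts of the other 3 genes lie at most 60 bases from those used. A match is a description of the letters, and binding of a factor was not measured.

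Summed over all cells, the 34 genes were lower in Bcl3-/- than in WT cells in both chimeras. They made up 16.3 of 10000 UMIs in WT1 and 18.3 in WT2, against 12.9 in KO1 and 15.04 in KO2. Both Bcl3-/- libraries lay below both WT libraries, and within each genotype chimera 2 lay above chimera 1. The means were 17.3 ± 1.43 in WT and 14.0 ± 1.49 in Bcl3-/- cells (SD, n = 2 each), and Bcl3-/- cells had 0.793 times the level of WT cells in chimera 1 and 0.821 times in chimera 2. With 2 libraries against 2, the 2-sided exact permutation test cannot give a p under 0.33, which is the value found here. A sum over a library cannot tell fewer cells that express these genes from less RNA of them per cell. Rpa2, Slbp, Dut, Mcm6 and Rfc2, the 5 most abundant, held between 43.8% and 48.2% of the UMIs of the 34 genes in a library.

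Gene by gene, 32 of the 34 log2 fold changes (Bcl3-/- over WT) were below 0 in edgeR's fit, against 48.5% of all genes tested, and their median was −0.42, against 0.007 for all genes. The CPM of both Bcl3-/- libraries lay below both WT libraries for 26 of the 34 genes, a pattern that 18.8% of all genes tested showed, and for none of the 34 did both Bcl3-/- libraries lie above both WT libraries, as was the case for 25.7% of all genes. The groups overlapped for 8 genes, Rpa2, Pcna, Pola1, Usp1, Chaf1b, Dnmt1, Mcm4 and Ccne2. None of the 34 passed an adjusted p of 0.05 in edgeR's quasi-likelihood test without a block, in which 0.363% of all genes were called. In that fit 25 of them, and 15.6% of all genes, had an unadjusted p below 0.05, and the lowest adjusted p was 0.0614 (Hells, edgeR, Benjamini-Hochberg). Each WT library shares its animal with the Bcl3-/- library of that number, and with the chimera as a replicate block the same test called 21 of the 34, all lower, with log2 fold changes from −0.94 to −0.27. With the block, 4.84% of all genes tested were called lower. The block leaves 1 residual degree of freedom, so these calls rest largely on the spread that edgeR shares across genes. DESeq2 without a block called 6 of the 34 (Mcm3, Mcm5, Mcm7, Lig1, Clspn and Hells), where 0.614% of all genes were called lower, and the block called each of those 6 too.

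**Figure D1:**
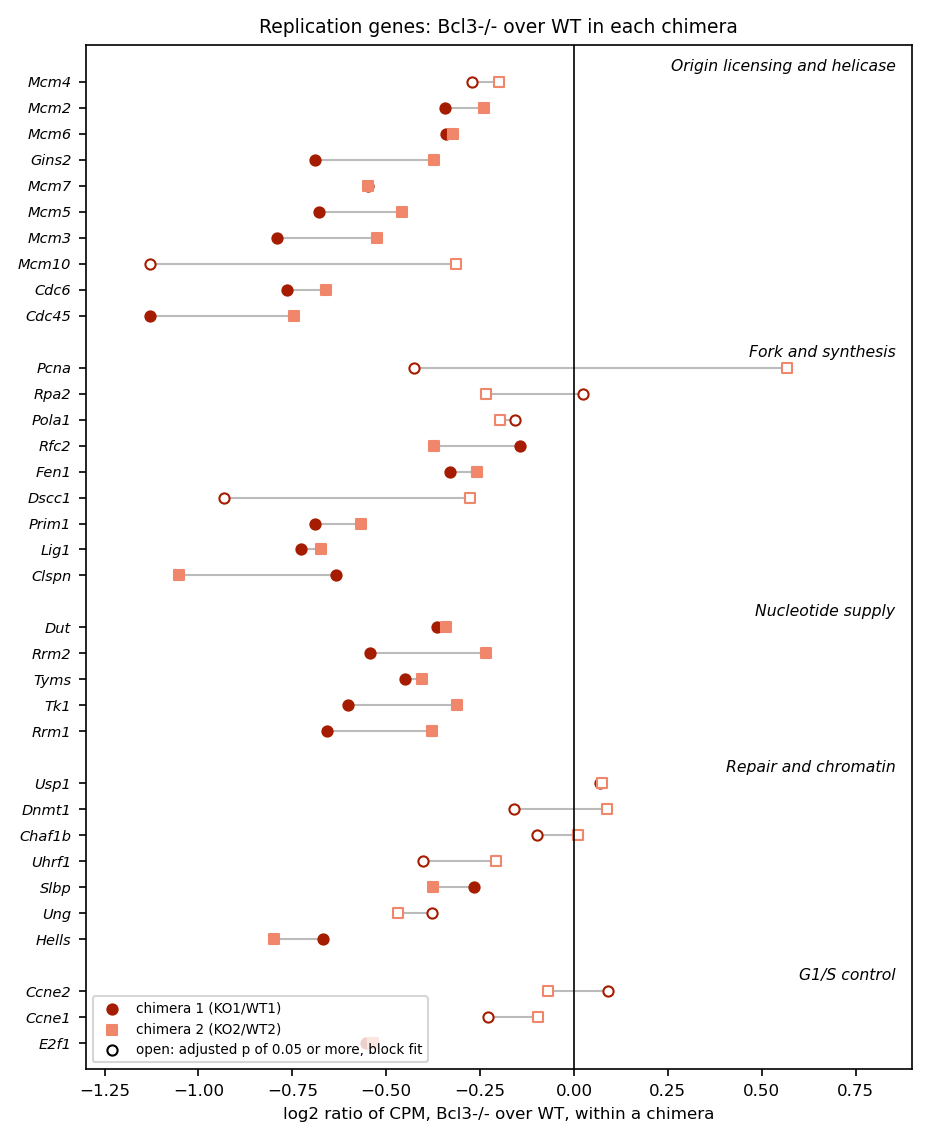
Log2 ratio of CPM in Bcl3-/- over WT cells for each of the 34 genes (vertical axis, grouped by role), as 1 point per chimera (circles, chimera 1 and squares, chimera 2). Filled points mark the 21 genes with an adjusted p below 0.05 in edgeR's quasi-likelihood test with the chimera as a block. Most points lie left of 0 (31 genes in chimera 1 and 30 in chimera 2), and Pcna is the gene whose points lie far apart on either side of it.

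Genes of origin licensing and of the replicative helicase had the lowest median fold change of the 5 role groups. All 10 had log2 fold changes below 0, with a median of −0.57, and 8 were called lower with the block. Their CPM added up to 401 in WT1 and 454 in WT2, against 283.5 in KO1 and 347 in KO2, with no overlap. Mcm3, 1 of the 6 subunits of the helicase ring (chromosome 1), had 57.0 CPM in WT1 and 66.6 in WT2, against 32.9 in KO1 and 46.3 in KO2. Mcm5 had 52.1 and 53.6 CPM in WT1 and WT2 and 32.5 and 39.0 in KO1 and KO2, and Mcm7 had 53.4 and 64.0 CPM against 36.5 and 43.8. For all 3 subunits the higher Bcl3-/- library lay below the lower WT library. The log2 fold change was −0.67 for Mcm3 (standard error 0.083), −0.58 for Mcm5 and −0.56 for Mcm7, with adjusted p-values of 1.90e-04, 6.61e-04 and 4.73e-04 from edgeR's quasi-likelihood test with the block. Without the block the adjusted p was 0.119, 0.0616 and 0.0975 in the same order of genes, from the same edgeR test.

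The other ring subunits had smaller fold changes. Mcm6, the most abundant of the group, had 113 and 132.5 CPM in WT1 and WT2 and 89.4 and 106 in KO1 and KO2. Mcm2 had 47.8 and 53.0 CPM against 37.6 and 44.8. Both were called lower with the block, at log2 fold changes of −0.35 and −0.31. Mcm4 was not called, and its groups overlapped, at 41.7 and 49.1 CPM in WT1 and WT2 and 34.6 and 42.7 in KO1 and KO2. Cdc45, which joins the ring to switch the helicase on, was the member with the largest log2 fold change, −0.94 (standard error 0.16, adjusted p = 0.00271, edgeR with the block). Its CPM were low, at 8.62 and 10.2 in the WT libraries and 3.94 and 6.09 in the Bcl3-/- libraries, and did not overlap. Cdc6, the loader of the ring, had 7.48 and 7.49 CPM in the WT libraries and 4.40 and 4.74 in the Bcl3-/- libraries. Gins2, a subunit of the GINS complex, had 15.8 and 13.9 CPM against 9.77 and 10.8, and both were called lower with the block. Mcm10, a helicase activator counted by 40 to 81 UMIs per library, had a log2 fold change of −0.72 with the block and was not called (adjusted p = 0.0888, edgeR).

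Among the 9 genes of the fork and of DNA synthesis, 8 had log2 fold changes below 0 (median −0.31) and 5 were called lower with the block. Lig1, the ligase that seals Okazaki fragments, had 35.1 CPM in WT1 and 46.6 in WT2, against 21.2 in KO1 and 29.2 in KO2. Clspn, which encodes the checkpoint mediator claspin, had 12.4 and 15.98 CPM in the WT libraries and 7.98 and 7.71 in the Bcl3-/- libraries. Prim1, the primase subunit that starts each fragment, had 23.1 and 28.7 CPM against 14.3 and 19.4. None of the 3 overlapped between genotypes. With the block their log2 fold changes were −0.72, −0.86 and −0.64, with adjusted p-values of 1.95e-04, 0.00540 and 0.00179 (edgeR). Fen1, the flap nuclease, and Rfc2, a subunit of the clamp loader, were also called lower with the block, at −0.31 and −0.27. Fen1 had 37.3 and 44.0 CPM in WT1 and WT2 and 29.7 and 36.75 in KO1 and KO2, and Rfc2 had 96.9 and 114 CPM against 87.75 and 87.85. Rpa2, a subunit of the complex that coats single-stranded DNA, was the most abundant of all 34 genes and overlapped between genotypes, at 194 and 232 CPM in WT1 and WT2 and 197 in both KO1 and KO2. Dscc1, part of an alternative clamp loader, and Pola1, the catalytic subunit of the primase polymerase, were not called.

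Pcna, the sliding clamp, was the exception among the fork genes. It had 83.0 CPM in WT1 and 61.8 in KO1, but 58.5 in WT2 and 86.8 in KO2, so that it was lower in Bcl3-/- cells in chimera 1 and higher in chimera 2. The 2 genotypes overlapped. Its log2 fold change was 0.05 with the block, and it was not called (adjusted p = 0.877, edgeR). Reads of Pcna may be shared with near-identical copies in the genome. The listed copy Pcna-ps2 had 60 and 22 UMIs in WT1 and WT2 and 27 and 29 in KO1 and KO2, against 1125 to 1868 for Pcna. These are UMIs assigned to that copy, and they do not show how many Pcna reads were lost or shared, which was not tested.

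All 5 genes of nucleotide supply were lower in both Bcl3-/- libraries than in both WT libraries, and all 5 were called lower with the block, at log2 fold changes between −0.53 (Rrm1) and −0.37 (Dut). Rrm2, the regulated subunit of ribonucleotide reductase, had 85.4 and 95.3 CPM in WT1 and WT2 and 58.6 and 81.0 in KO1 and KO2. Rrm1, its partner, had 38.7 and 47.2 CPM against 24.5 and 36.4. Dut, which clears dUTP, had 144 and 139 CPM in WT1 and WT2 and 112 and 110 in KO1 and KO2. None of these 3 genes overlapped between genotypes. Tyms, thymidylate synthase, had 58.0 and 69.1 CPM in the WT libraries and 42.5 and 52.2 in the Bcl3-/- libraries, and Tk1, thymidine kinase, 33.8 and 32.5 against 22.2 and 26.2.

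Of the 7 genes of repair, chromatin and histone mRNA, 6 had log2 fold changes below 0 and 2 were called lower with the block. Hells, a chromatin remodeller needed for DNA methylation (chromosome 19), had 23.3 CPM in WT1 and 27.9 in WT2, against 14.7 in KO1 and 16.03 in KO2, and its log2 fold change was −0.75 (standard error 0.11, adjusted p = 7.48e-04, edgeR with the block). Slbp, which binds the end of histone mRNA, had 166 and 212 CPM in WT1 and WT2 and 138 and 163 in KO1 and KO2. The KO2 value of Slbp lay just below WT1. Usp1, a deubiquitinase that acts on Pcna, was the other gene with a log2 fold change above 0, and had 47.9 and 55.6 CPM in the WT libraries and 50.3 and 58.5 in the Bcl3-/- libraries. Dnmt1, the maintenance DNA methyltransferase, and Chaf1b, a histone chaperone subunit, overlapped between genotypes, with log2 fold changes of −0.05 and −0.06. Chaf1b had 33.8 and 34.7 CPM in the WT libraries and 31.5 and 34.9 in the Bcl3-/- libraries. Uhrf1, which brings Dnmt1 to replicated DNA, and Ung, which removes uracil, did not overlap and were not called (adjusted p = 0.180 and 0.0901, edgeR with the block).

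In the G1/S control group, E2f1, the transcription factor, had 12.6 and 14.6 CPM in WT1 and WT2 and 8.57 and 10.1 in KO1 and KO2, and was called lower with the block (log2 fold change −0.56, standard error 0.15, adjusted p = 0.0330, edgeR). The cyclins that act with it were not called. Ccne1 had 27.1 and 27.2 CPM in the WT libraries and 23.2 and 25.4 in the Bcl3-/- libraries, and Ccne2 lay between 2.97 and 4.68 CPM with the genotypes mixed.

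The rest of the pathway was taken from a list of 65 other replication genes, of which 64 were found. Of these, 53 had log2 fold changes below 0, and without the block edgeR called none, while 29 had an unadjusted p below 0.05, against 15.6% of all genes. With the block, 17 were called lower and 1 higher, where 4.84% of all genes were called lower and 4.81% higher, and DESeq2 called 4. Among the lowest adjusted p-values with the block were those of 2810417H13Rik (an older symbol of the Pcna-binding factor gene Pclaf), Gins1, Dtl, Gmnn, Nasp, Rfc4, Rfc3, Rpa3 and Timeless. 2810417H13Rik had 164 CPM in WT1 and 186.5 in WT2, against 109 in KO1 and 139 in KO2. Gmnn, which encodes the licensing inhibitor geminin, had 56.3 and 64.6 CPM in the WT libraries and 39.9 and 45.2 in the Bcl3-/- libraries. Dtl, the adaptor that marks licensing factors for destruction, had 21.7 and 26.7 against 13.3 and 15.3. All 3 were separated by genotype. Rpa3, the small subunit of the complex that holds Rpa2, was the gene called higher, at 27.2 and 18 CPM in WT1 and WT2 and 31.6 and 43.1 in KO1 and KO2 (log2 fold change 0.71, adjusted p = 0.0146, edgeR with the block). Its difference was larger in chimera 2 than in chimera 1.

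Few cells carried many of these transcripts. With each cell thinned to 1000 UMIs, to set aside the unequal depths, 34.9% and 30.7% of cells in WT1 and WT2 had no UMI of the 34 genes, and 39.2% and 35.9% in KO1 and KO2. The top 10% of cells held between 38.8% and 40.4% of all UMIs of the 34 genes in each library. At least 5 such UMIs were found in 5.43% of cells in WT1 and 6.72% in WT2, against 2.92% in KO1 and 4.15% in KO2. The share in Bcl3-/- cells was 0.537 times that in WT cells in chimera 1 and 0.618 times in chimera 2, and both Bcl3-/- libraries lay below both WT libraries (2-sided exact permutation p = 0.33, the smallest that 2 libraries against 2 allow). At the same depth, the share was between 0.539% and 1.39% in terminal effector-like cells, a state described below with those that follow. It was between 0.46% and 2.27% in interferon-stimulated-like, 0% and 2.23% in MPEC-gene and 0% and 3.57% in B-like cells. Cells under 1000 UMIs were left out (25 WT1, 223 WT2, 15 KO1 and 19 KO2 cells). Barcodes with 1 to 20 UMIs, which hold free RNA, had 17.4 (WT1), 18.8 (WT2), 14.8 (KO1) and 16.8 (KO2) UMIs of the 34 genes per 10000, in the same order of libraries as the cells and at a like level, and the part of free RNA in the levels was not tested.

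**Figure D2:**
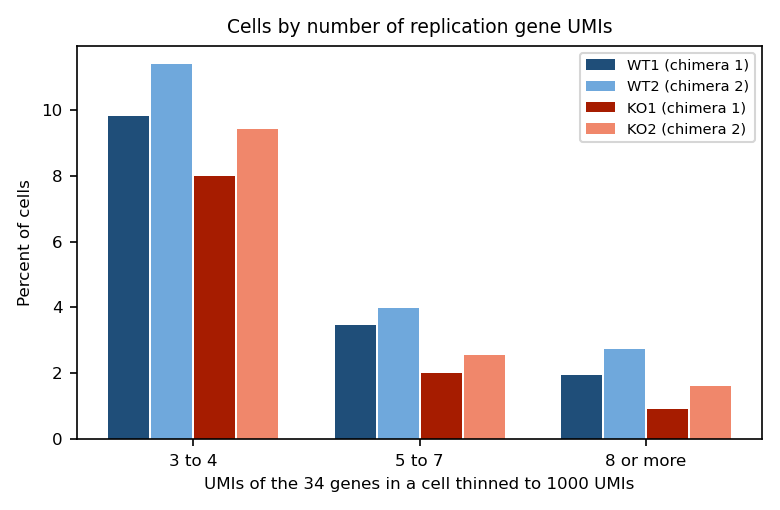
Percent of cells (vertical axis) with 3 to 4, 5 to 7 and 8 or more UMIs of the 34 genes (horizontal axis), after each cell was thinned to 1000 UMIs, with 1 bar per library. In each class both WT bars are taller than both KO bars, and 8 or more UMIs were found in 1.95% and 2.74% of cells in WT1 and WT2 and in 0.916% and 1.61% in KO1 and KO2.

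Across T cell states, the summed level of the 34 genes was highest in 1 cluster per library. Clusters were found in each library after 238 cell cycle genes, the 34 among them, had been removed from the genes used for clustering. In every library 2 effector clusters were still led by cell cycle genes, 1 by Hist1h2ap and 2810417H13Rik (called S-led) and 1 by Cdc20 and Ccnb2 (called M-led). The 10 leading genes of each S-led cluster also held Rrm2, 1 of the 34, and those of WT2 and KO1 held Lig1 as well, with Tk1 in WT2, so that the high level of the 34 genes there is in part fixed by how these clusters were picked. Top2a and Nusap1, which act in mitosis, were also among the 10 in each library. Between clusters the values are a description, with no test. S-led clusters had 52.9 and 59.2 UMIs of the 34 genes per 10000 in WT1 and WT2, and 53.5 and 62.6 in KO1 and KO2. M-led clusters had 13.2, 12.8, 12.6 and 11.1 in the order WT1, WT2, KO1 and KO2, close to the 12.2, 12.7, 9.96 and 11.1 of effector clusters not led by cell cycle genes. A list of 50 mitotic genes made up 61.5, 89.3, 78.4 and 46.2 UMIs per 10000 in M-led clusters in that order, and 56.3, 63.6, 55.5 and 74.35 in S-led clusters, against 5.275 to 6.86 in effector clusters not led by cell cycle genes. Cells of S-led clusters also had more UMIs each, with medians of 6609.5, 3812, 6733.5 and 5324.

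Terminal effector-like clusters, named from markers such as Zeb2 and Cx3cr1, had 10.8 and 12.4 UMIs of the 34 genes per 10000 in WT1 and WT2, and 9.80 and 11.6 in KO1 and KO2. Interferon-stimulated-like clusters, led by genes such as Ifit1 and Isg15, had 10.4, 12.3, 9.56 and 10.6. Clusters with genes of memory precursor effector cells (MPEC-gene clusters, led by Tcf7, Ccr7 and Dapl1) had 10.3, 10.8, 8.31 and 10.5 in the same order. These 3 states lay close together in each library, and in each state the genotypes overlapped, with KO1 the lowest library. Within each animal Bcl3-/- cells were lower in all 3 states, at 0.906 and 0.937 times the WT level in chimeras 1 and 2 in terminal effector-like, 0.915 and 0.862 in interferon-stimulated-like and 0.806 and 0.974 in MPEC-gene clusters. In KO1 the MPEC-gene cluster held 78 cells and had Cd4 among its leading genes, and 2 further KO1 clusters led by Il7r and Tcf7 were counted with the effectors. B-like cells that passed the sort, between 106 and 136 per library, had 15.8 and 17.7 UMIs per 10000 in WT1 and WT2 and 9.40 and 8.98 in KO1 and KO2. The 34 genes were also lower in Bcl3-/- cells with T cell clusters only, at 16.7 and 18.8 per 10000 in WT1 and WT2 and 13.4 and 15.2 in KO1 and KO2.

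**Figure D3:**
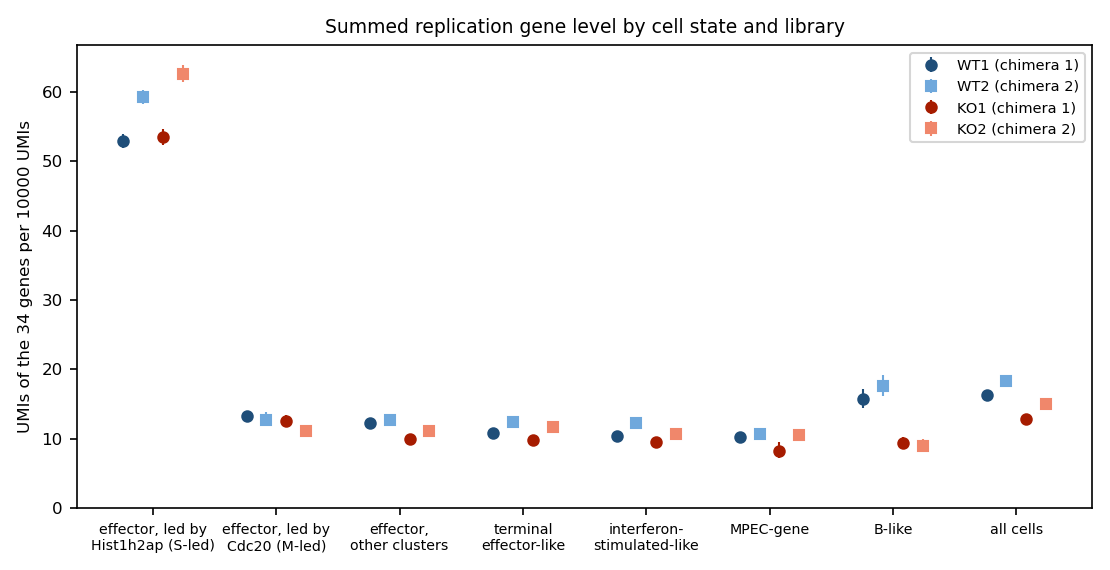
UMIs of the 34 genes per 10000 UMIs (vertical axis) in each cell state and over all cells (horizontal axis), with 1 point per library and 95% exact Clopper-Pearson intervals that cover counting error only. The S-led clusters stand at 52.9 to 62.6 in all 4 libraries with the genotypes mixed, and the other T cell states lie between 8.31 and 13.2.

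Levels were next compared between genotypes inside and outside the S-led clusters. Within S-led clusters the summed level overlapped between the genotypes (56.0 ± 4.47 in WT and 58.0 ± 6.41 in Bcl3-/- cells, SD, n = 2 each, 2-sided exact permutation p = 0.67), and was 1.01 and 1.06 times the WT level in Bcl3-/- cells of chimeras 1 and 2. These clusters held 5.91% of cells in WT1 and 6.61% in WT2, against 3.76% in KO1 and 4.08% in KO2 (2-sided exact permutation p = 0.33). They held 35.9% and 39.9% of the UMIs of the 34 genes in WT1 and WT2, and 29.5% and 29.8% in KO1 and KO2. The border between S-led and M-led clusters was not the same in each library. M-led clusters held 526 cells in KO2 and 132 to 251 in the other libraries, and S-led and M-led clusters together held 10.99% and 9.17% of cells in WT1 and WT2 and 6.22% and 12.2% in KO1 and KO2, which overlap. With the cell cycle genes kept in the clustering, S-led clusters held 2.63% and 7.16% of cells in WT1 and WT2 and 4.47% and 2.82% in KO1 and KO2, so that the direction turned in chimera 1. A cluster led by Lig1 and Mcm genes was counted as S-led in KO1 but not in WT1 or KO2 there, since it held Hist1h2ap among its leading genes in KO1 only. With that cluster counted in every library, the shares were 8.60% and 7.16% in WT1 and WT2 and 4.47% and 4.94% in KO1 and KO2, with no overlap. Outside the S-led clusters the summed level was 11.8 and 12.6 per 10000 in WT1 and WT2 and 9.82 and 11.4 in KO1 and KO2, with no overlap and 0.836 and 0.904 times the WT level in chimeras 1 and 2. With the cell cycle genes kept in the clustering, it was 14.6 and 12.3 against 9.46 and 12.5, which overlap, and 0.648 and 1.02 times the WT level. With the cluster led by Lig1 and Mcm genes also counted as S-led in every library, it was 10.5 and 12.3 against 9.46 and 10.9, which overlap as well, and 0.898 and 0.887 times the WT level. The level in effector clusters not led by cell cycle genes depended on the clustering too, at 16.8 and 11.8 in WT1 and WT2 and 9.37 and 13.3 in KO1 and KO2 with the cell cycle genes kept.

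Tests within states were run on counts summed per library. Without the block edgeR called none of the genes in any state, while it called 0.224% of all genes in effector clusters, 0.058% in those not led by cell cycle genes, 0.49% in S-led, 0% in M-led, 1.51% in terminal effector-like, 0.184% in interferon-stimulated-like and 0.473% in MPEC-gene clusters. An unadjusted p below 0.05 was found for 26 of 34 genes in effector clusters (13.1% of all genes), for 16 of 33 in those not led by cell cycle genes (10.9%) and for 5 of 25 in MPEC-gene clusters (7.76%). It was found for 2 of 34 in S-led (9.53%), 1 of 25 in M-led (6.11%), 3 of 28 in terminal effector-like (13.2%) and 1 of 24 in interferon-stimulated-like clusters (7.14%), each below the share of all genes. DESeq2, run on the effector clusters, called 6 of the 34 lower there, where 0.373% of all genes were called lower. With the block edgeR called 20 of 34 lower in effector clusters, S-led and M-led ones included, where 3.33% of all genes were called lower. In effector clusters not led by cell cycle genes, 33 of the genes passed the filter and 4 were called lower with the block, Mcm3, Mcm5, Lig1 and Hells, where 1.06% of all genes were called lower. These clusters were not alike in every library, since 1 of WT1, with 688 cells, had Mcm3 and Mcm5 among its 10 leading genes and no such cluster of the other libraries did. In S-led clusters 16 of the 34 log2 fold changes were above 0 and 18 below. There the block called Pcna and Usp1 higher in Bcl3-/- cells (log2 fold changes 0.36 and 0.41, adjusted p = 0.0485 and 0.0433, edgeR), where 2.51% of all genes were called higher. Pcna had 283.5 and 196 CPM in the S-led clusters of WT1 and WT2 and 258 and 370 in those of KO1 and KO2, so that it was higher only in chimera 2 and overlapped between genotypes. Usp1 had 109 and 131 CPM against 155 and 170, with no overlap. In M-led, terminal effector-like, interferon-stimulated-like and MPEC-gene clusters, 25, 28, 24 and 25 of the genes passed the filter and none was called with the block, where 1.61%, 5.87%, 2.82% and 1.02% of all genes were called in either direction.

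A second division of the cells used genes outside the set. Cells were classed by the UMIs of the 50 mitotic genes in 1000 UMIs. These are cyclin B, kinesin, kinetochore and spindle genes and others such as Mki67, Top2a, Cdk1 and Smc2. In S-led clusters 68.8%, 72.1%, 63.4% and 75.85% of cells (WT1, WT2, KO1 and KO2) had 3 or more such UMIs. In M-led clusters 72.5%, 86.3%, 88.6% and 44.3% did, so the class is not one of mitotic cells alone. Cells with 3 or more made up 11.1% of WT1, 11.3% of WT2, 7.77% of KO1 and 9.08% of KO2 cells. In them the 34 genes stood at 33.4, 40.7, 29.6 and 35.8 UMIs per 10000 in WT1, WT2, KO1 and KO2, against 11.7, 12.5, 10.1 and 11.01 in cells with no mitotic UMI. The share of cells with 3 or more mitotic UMIs was lower in both Bcl3-/- libraries than in both WT libraries (2-sided exact permutation p = 0.33), as was the level of the 34 genes in cells with none. In cells with 3 or more the levels overlapped between genotypes, but within each animal the Bcl3-/- cells were lower, at 0.887 and 0.878 times the WT level in chimeras 1 and 2, against 0.861 and 0.884 times in cells with no mitotic UMI. Of the cells with at least 5 UMIs of the 34 genes, between 50.6% and 57.1% had 3 or more mitotic UMIs and between 15.3% and 19.1% had none.

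All 34 genes were higher in cells with 3 or more mitotic UMIs than in cells with none in every library, 27 of them by over 2-fold and 11 by over 5-fold in each library. Among genes with at least 100 UMIs in every library, Rrm2 had the highest ratio, with a geometric mean of 19.6 over the 4 libraries (16.4 to 22.1), followed by Clspn (13.6) and Tk1 (13.1). Rrm2 went from 22.04 CPM in WT1 cells with no mitotic UMI to 362 CPM in those with 3 or more. Rpa2 (1.14), Rfc2 (1.55) and Chaf1b (1.70) had the lowest ratios, so that Rpa2 and Rfc2, among the most abundant of the 34, varied little with mitotic transcripts. Across the 34 genes the ratio had a Spearman correlation of −0.66 with the log2 fold change between genotypes. This is a description over genes measured in the same 4 libraries, in which genes with the higher ratios had the lower fold changes. Both values come from the same cells, of which fewer had 3 or more mitotic UMIs in the Bcl3-/- libraries. The sign is therefore in part fixed in advance, and the correlation is no test.

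**Figure D4:**
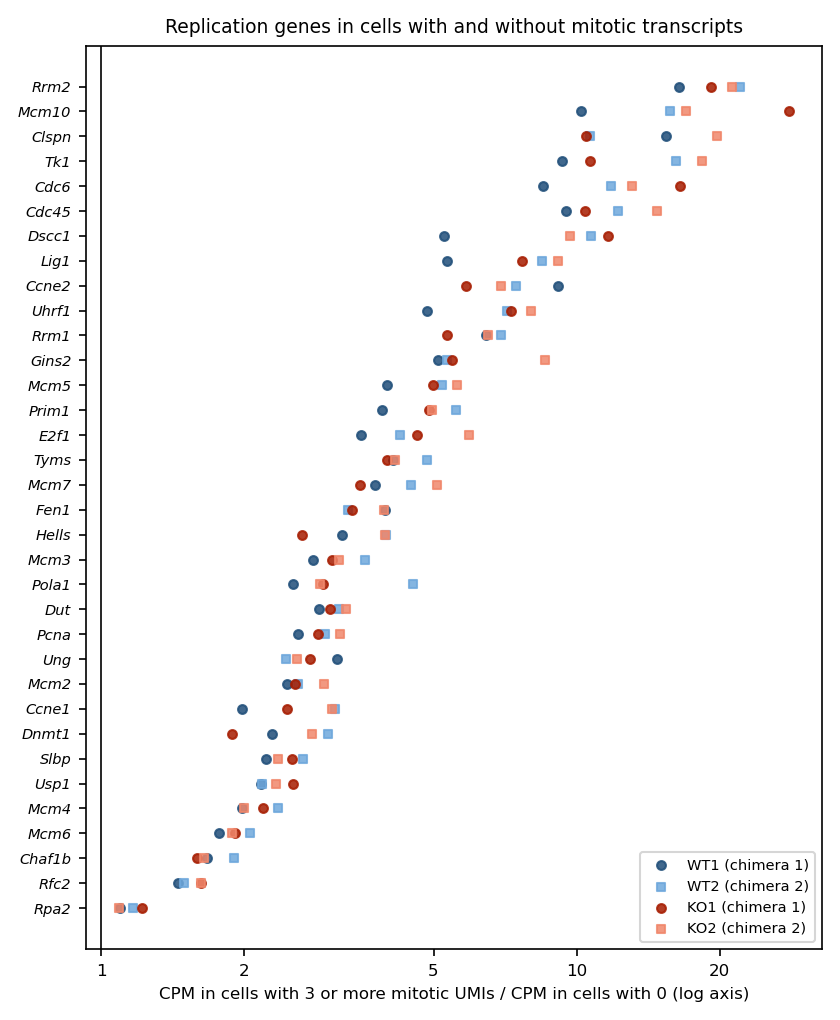
Ratio of CPM in cells with 3 or more mitotic UMIs over CPM in cells with none (horizontal log axis) for each of the 34 genes (vertical axis, ordered by geometric mean), with 1 point per library. All points lie right of 1, from Rpa2 at the bottom, at 1.09 to 1.22, to Rrm2 at the top, at 16.4 to 22.1.

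Within the mitotic classes, edgeR without the block called none of the genes, against 0.477% of all genes in cells with no mitotic UMI and 0.671% in cells with 3 or more. An unadjusted p below 0.05 was found for 12 of 33 genes in the former (13.3% of all genes) and 10 of 34 in the latter (10% of all genes). DESeq2 called none of these genes in either class. Of all genes tested it called 115 of 10699 in the former (40 lower) and 40 of 9237 in the latter (5 lower). With the block edgeR called 5 of the 33 that passed the filter lower in Bcl3-/- cells with no mitotic UMI, Mcm3, Mcm5, Mcm7, Lig1 and Hells, where 3.78% of all genes were called lower. Their log2 fold changes lay between −0.78 (Lig1) and −0.42 (Mcm7). In cells with 3 or more mitotic UMIs it called 7 of 34 lower, Mcm3, Mcm7, Lig1, Clspn, Tyms, Rrm1 and Hells, where 2.21% of all genes were called lower, with log2 fold changes between −0.76 (Hells) and −0.40 (Tyms). Mcm3, Mcm7, Lig1 and Hells were called in both classes. Whether the fold changes differed between the classes was not tested.

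The chimeras differed as well. The paper describes its replicate set as a separate experiment on another chimera, so animal and experiment cannot be told apart. In WT cells 27 of the 34 genes, and in Bcl3-/- cells 32, had higher CPM in chimera 2 than in chimera 1, with median log2 ratios of 0.22 and 0.25. The share of all genes tested with that direction was not computed, so these counts are not read as particular to the 34 genes. The difference between genotypes within a chimera had a median log2 ratio of −0.44 in chimera 1 and −0.33 in chimera 2, and 28 genes were below WT in both chimeras, a pattern shown by 31.1% of all genes tested.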

How the data were processed

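The 4 libraries of sorted GP33+ CD8+ T cells were analysed. The authors prepared 3′ libraries with the 10x Genomics kit (version 2), extracted counts with Cell Ranger 2.2.0, and deposited them as raw UMI counts, unfiltered, for 737280 barcodes per library. The submitters' processing notes name bcl2fastq 2.17 and the build mm10, and no source used here gives the annotation version. The libraries held 21193300 (WT1), 20358780 (WT2), 22922219 (KO1) and 22672343 (KO2) UMIs.

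From the counts, barcodes with 500 or more genes and no more than 10% mitochondrial UMIs were kept as cells, as in the methods. Each cell was thinned to 1000 UMIs where shares of cells were compared. Barcodes shared between 2 libraries numbered 37 to 63 per pair, against 36.0 to 71.3 expected from independent draws. Clusters were found per library with Seurat 5.3.0 (2000 variable genes, 15 components, 20 neighbours, resolution 0.8), and clusters under 1% were left out of the values by state but kept in those over all cells. A cluster took a name when at least 3 markers were 2-fold above the other cells and in 10% of its cells, with at least 1 among its 10 leading genes. A cluster whose leading genes held as many B-like as myeloid-like markers was left unnamed, as was one that scored as B-like with a myeloid-like marker among them, the latter a rule set after the clusters were seen. The related cluster of WT2 scored as myeloid-like and kept that name. Also set after the clusters were seen was the choice of S-led and M-led clusters. No doublet caller was run.

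Counts summed per library were compared by the quasi-likelihood test of edgeR 4.0.16, after filterByExpr and TMM scaling, with Benjamini-Hochberg adjustment over all genes tested and a threshold of 0.05, with DESeq2 1.42.0 as an alternative, and the scripts were tested on simulated data. The numbers 1 and 2 pair libraries, since both genotypes of a number come from 1 animal per the labels. Across 6863 genes, the difference between WT1 and WT2 had a correlation of 0.291 with that between KO1 and KO2 (log2 scale). All 34 genes are accounted for. Values per library were to be given for those called with or without the block, the 10 with the highest CPM, the 3 highest and 3 lowest ratios between mitotic classes and, of the pathway list, at most 10 by adjusted p, of which 1 is not reported here. Values of Mcm4, Mcm10, Ccne1 and Ccne2 were added after they were seen. Alternatives were the block, DESeq2, no filter, plain library size, other sets of cells and leaving out each library. Intervals cover counting error only. The genes, lists and tests were chosen with earlier results of these data known. Coordinates are from RefSeq and GENCODE vM21 on GRCm38.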

Additional observations from a re-analysis of the deposited data

Results flagged for a closer look

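Pcna stood out because its difference between genotypes had opposite signs in the 2 chimeras. The log2 ratio of CPM, Bcl3-/- over WT, was −0.43 in chimera 1 and 0.57 in chimera 2, from 83.0 CPM in WT1 and 61.8 in KO1, and 58.5 in WT2 and 86.8 in KO2. Each genotype has 1 library per chimera, animal and experiment cannot be told apart, and the difference between the chimeras was not tested.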

How the results depend on the processing

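The summed level and the share of cells with at least 5 UMIs kept their direction under every alternative run. The share differed by −2.54 percentage points between genotypes at 5 UMIs, by −4.43 at a threshold of 3 UMIs and by −1.09 at 8. Counts of calls depended on the fit. Over all genes edgeR called 42, against 1116 with the replicate block, 203 with DESeq2, 4 with no filter on low counts, 80 with plain library size, 82 with cells thinned to 1000 UMIs and 40 to 228 with 1 library left out. Of the 34 genes it called 0, against 21 with the block, 6 with DESeq2, 1 with thinned cells and 0 to 6 with 1 library left out (6 without WT1). Of the pathway list it called 0, against 18, 4 and 1 under the block, DESeq2 and thinning, and 0 to 4 with 1 library left out. The median log2 fold change of the 34 genes ranged from −0.51 (without KO2) to −0.34 (without KO1). Within effector clusters the calls were 0, against 20 with the block and 6 with DESeq2. They were 0 against 5 with the block in cells with no mitotic UMI. In cells with 3 or more they were 0, against 7 with the block and 1 with no filter, where 131 of all 14105 genes were called with no filter. Calls in these sets with 1 library left out, where a genotype keeps 1 library, are not given here. With 1 library left out, the median log2 fold change of the genes ranged from −0.52 to −0.39 in effector clusters. It ranged from −0.32 to −0.25 in cells with no mitotic UMI and from −0.33 to −0.13 in cells with 3 or more. With the block, other sets of cells (chosen after seeing the data for this fit) gave 18 to 22 calls of the 34. Over all genes these fits gave from 818 calls of 11560 tested (at least 800 genes) to 1401 of 11102 (T cell clusters only), in either direction.

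Chosen after seeing the data, clustering with the cell cycle genes changed the difference in the share of S-led cells from −2.34 to −1.25 percentage points, with the direction turned in chimera 1. Here clusters led by Lig1 and Mcm genes, without Hist1h2ap among their leading genes in WT1 (295 cells) and KO2 (138 cells), were counted as S-led in KO1 (161 cells) alone, and the difference was −3.17 points with these clusters counted in each library. The summed level outside S-led clusters, which differed between genotypes by −1.57 per 10000, differed by −2.46 with the cell cycle genes in the clustering, with the direction turned in chimera 2, by −1.23 with the clusters led by Lig1 counted and by −2.34 to −0.79 with 1 library left out. For the share of S-led cells a resolution of 0.5 gave −3.84 points, but there S-led and M-led cells formed 1 cluster in each library except KO2, so that unlike clusters were compared. For S-led and M-led cells together, the difference of −0.88 points ranged from −3.86 (without KO2) to 2.10 (without KO1) with 1 library left out, and was 0.032 without WT1, −0.036 at a resolution of 0.5 and −2.51 with the cell cycle genes in the clustering. Signs turned for genes near 0, Pola1 (0.0055) and Chaf1b (0.084) with thinned cells and Ccne2 (0.00068) without shared barcodes. With 1 library left out, the log2 fold change ranged from −0.22 to 0.34 for Pcna, from −0.025 to 0.13 for Usp1, from −0.16 to 0.056 for Dnmt1 and from −0.29 to 0.30 for Ccne2. The cause of these changes was not tested. The block with a library left out has no residual degrees of freedom and was not run. Where a library is left out, the lone library of a genotype is assumed to vary like the other genotype. Mcm10, Dscc1 and Ccne2 had under 100 UMIs in each library, and whether depth limited their calls was not tested.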
